A study of Arabidopsis thaliana with 14 samples.

Results

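The genotype dependence of the DTT response was read from 8 of the 14 arrays of the series: Wassilewskija, Wassilewskija + DTT, CSN8 and CSN8 + DTT, each of these 4 groups with 2 arrays. The labels place 1 array of each group in batch 1 and 1 in batch 2, so that each genotype gives 1 DTT change per batch. The quantity of interest is the interaction, which is the DTT change in CSN8 minus the DTT change in Wassilewskija, fitted with batch as a covariate and also computed within each batch. It answers whether the mutant responded to DTT by a different amount than the wild type, transcript by transcript.

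All 8 arrays hold RNA of whole Arabidopsis thaliana seedlings harvested at 12 days after growth on agar with MS salts, under 16 h light and 8 h dark. Wassilewskija is a wild-type accession, and CSN8 is the label of the mutant in the COP9 signalosome subunit of that name. Neither the accession background nor the allele of CSN8 is stated in the labels. DTT is the usual abbreviation of dithiothreitol, and its dose and duration are not given. The treatment text that all samples share speaks of no added treatment, so the groups with DTT rest on the sample titles and sources. Whether the 2 arrays of a group came from separate cultures is not stated either, so p-values here measure the spread between arrays, which may be technical. No probe set with a single gene in the annotation stood for the locus that encodes CSN8, and the mutant label was therefore not checked on that transcript.

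Dithiothreitol reduces disulfide bonds, and secreted proteins then fail to fold in the endoplasmic reticulum (ER). Plant cells answer with the unfolded protein response, in which the transcription factors BZIP60 (made active when IRE1 splices its mRNA) and BZIP28 (released from the membrane by proteolysis) raise genes for chaperones, for protein import and export at the ER, and for ER-associated degradation of misfolded proteins. The COP9 signalosome removes the ubiquitin-like protein RUB (NEDD8 in animals) from cullins, the scaffolds of a large family of ubiquitin ligases. Plants that lack it show light-grown features in the dark and altered hormone and defence responses.

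Values are the deposited log2 levels of probe sets, the groups of oligonucleotides that report 1 transcript on the array. A difference of 1 on this scale is a doubling, and levels of different genes are not compared, since each probe set has its own affinity. Tests are limma's moderated tests over 22746 probe sets, and a transcript is said to have risen, fallen or changed if its p-value after Benjamini-Hochberg adjustment was under 0.05. With 2 arrays per group, the number of arrays limits the precision: the median half-width of the 95% interval was 0.598 for an interaction and 0.423 for the DTT change in 1 genotype. Fewer cells of a type and less RNA per cell cannot be told apart in whole seedlings.

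The CSN8 array of batch 1 stood apart from the other 7 in its GAPDH control probe sets. They gave a 3′ minus 5′ difference of 1.67, against 0.25 to 0.62 in the others, so their 5′ signal was low relative to their 3′ signal. By the actin control probe sets it did not stand alone. Their difference was 4.28 on this array and 4.15 on the CSN8 + DTT array of batch 1, against 3.22 to 3.90 in the rest. This array enters the DTT change of CSN8 in batch 1, and the larger differences are given with their values within each batch. Root markers, 2 of 10 measured (EXPA7 and EXPA18, expansins of root hairs), summed on the linear scale, without and then with DTT, to 152 and 45 in Wassilewskija and to 61 and 34 in CSN8 of batch 1, and to 156 and 60 in Wassilewskija and 113 and 38 in CSN8 of batch 2. Late embryo and seed markers, 4 of 18 measured, summed to 105 to 235 in the 4 arrays of batch 1 and to 476 to 1090 in the 4 of batch 2. Green tissue markers, 4 of 15 measured, summed to 19872 to 23425 in the 4 Wassilewskija arrays and to 14921 to 19920 in the 4 CSN8 arrays.

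Genes of the ER stress response rose in both genotypes by amounts that were close to each other. Of 83 loci on 4 lists (stress regulators, folding, ER-associated degradation, and N-glycosylation with translocon and signal peptide processing), 31 were measured. Over all probe sets, the DTT change averaged over both genotypes passed the test for 1068 (4.7% of all tested), upwards for 416 (1.83%) and downwards for 652 (2.87%). On the 4 lists 19 rose and 0 fell. In Wassilewskija alone 16 of the 31 rose, where 0.33% of all probe sets did, and in CSN8 alone 17 rose, where 1.59% did. Their interactions ran from -0.67 to 0.43 with a median of -0.10, against -0.01 over all probe sets, and 0 of the 31 passed the test. Among the 19 that rose on average, the rise was larger in CSN8 in 6 and in Wassilewskija in the others, with a median interaction of -0.08.

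**Figure D1:**
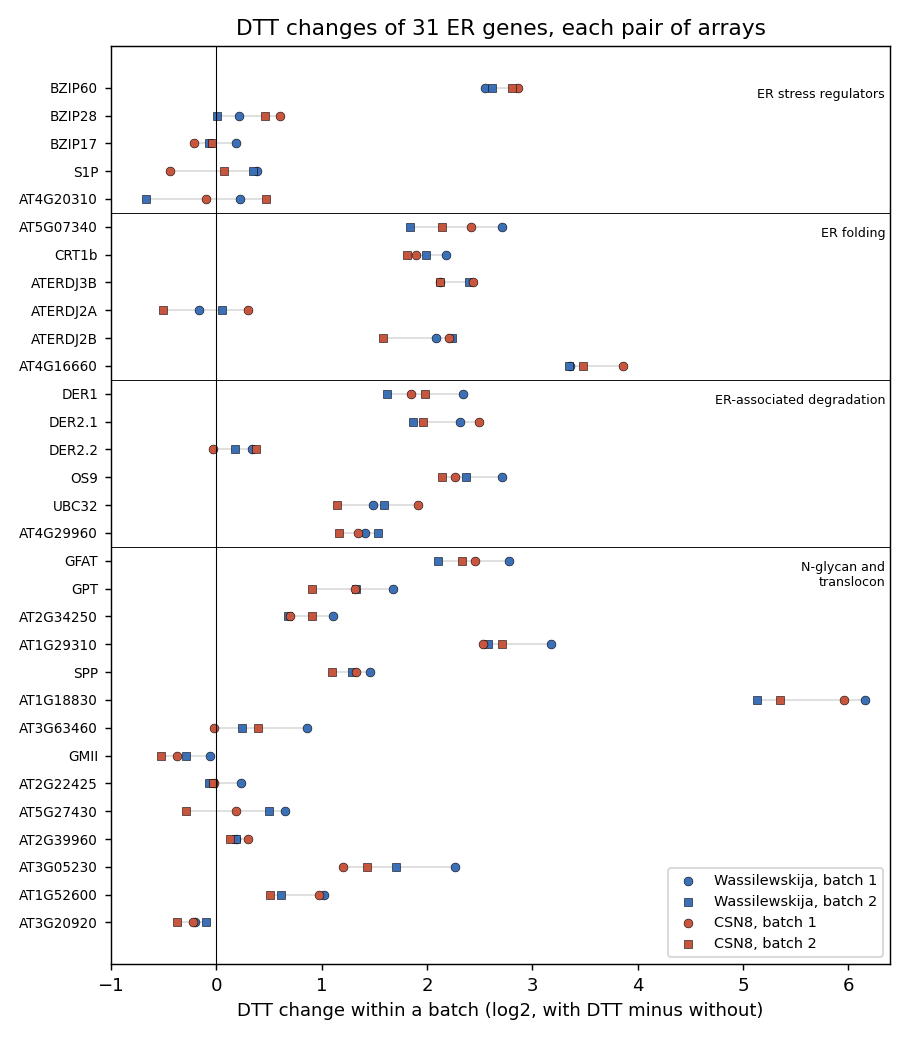
DTT change of the 31 measured genes on the 4 ER lists, in log2 units on the horizontal axis, with 1 line per gene. Blue points are Wassilewskija and red points CSN8, circles batch 1 and squares batch 2; the changes of both genotypes overlap or lie close together for most genes, from AT1G18830 at the top of the range to members near 0.

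The transcript of BZIP60 was at 8.93 and 8.31 in Wassilewskija, 11.48 and 10.93 with DTT, 7.99 and 7.89 in CSN8, and 10.85 and 10.70 with DTT, batch 1 first in each pair. All 4 arrays with DTT lay above all 4 without it, and CSN8 was the lower genotype in both conditions and both batches. The rise was 6.01-fold in Wassilewskija (limma adjusted p = 0.00422) and 7.13-fold in CSN8 (0.00309), and the interaction was 0.25 ± 0.26 (SE) with a 95% interval of -0.37 to 0.87. The other 4 measured regulators did not pass in either genotype. BZIP28 gave an interaction of 0.43 ± 0.25, BZIP17 one of -0.19 ± 0.27, and S1P, the protease that cuts such membrane-bound factors, one of -0.55 ± 0.26.

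Among the folding genes, 5 of 6 measured members rose in each genotype, with a median change over the 6 of 2.21 in Wassilewskija and 2.08 in CSN8. ATERDJ3B, a co-chaperone of the ER lumen, was at 8.80 and 7.81 in Wassilewskija, 10.93 and 10.22 with DTT, 8.59 and 8.33 in CSN8, and 11.03 and 10.44 with DTT. Every array with DTT was above every array without it, and the levels of both genotypes overlapped in each condition. The folds were 4.80 and 4.85, and the interval of the interaction ran from -0.65 to 0.67. The largest change of this group belonged to AT4G16660, which the reference leaves without a symbol, at 10.2-fold in Wassilewskija and 12.7-fold in CSN8 (interaction 0.32 ± 0.22). CRT1b, a calreticulin that binds glycoproteins during folding, rose by 2.08 ± 0.22 in Wassilewskija and by 1.86 ± 0.22 in CSN8. ATERDJ2B, a J-domain protein of the translocon, rose by 2.17 ± 0.20 and 1.89 ± 0.20, while its relative ATERDJ2A did not pass in either genotype (-0.05 ± 0.30 and -0.10 ± 0.30).

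In ER-associated degradation, 4 of 6 measured members rose in Wassilewskija and 5 in CSN8. OS9, a lectin that recognises misfolded glycoproteins, was at 7.05 and 6.77 in Wassilewskija, 9.76 and 9.14 with DTT, 6.99 and 7.42 in CSN8, and 9.26 and 9.56 with DTT. Its levels overlapped between genotypes in each condition, and it rose 5.82-fold and 4.61-fold, with an interaction of -0.33 ± 0.38. The derlins DER1 and DER2.1, membrane proteins of the retrotranslocation machinery, rose by 1.98 ± 0.20 and 2.09 ± 0.21 in Wassilewskija and by 1.91 ± 0.20 and 2.22 ± 0.21 in CSN8. DER2.2 did not pass (0.26 ± 0.16 and 0.18 ± 0.16). UBC32, an ER-bound ubiquitin-conjugating enzyme, accounts for the difference in counts, with nearly equal changes of 1.54 ± 0.25 (adjusted p = 0.0651) and 1.53 ± 0.25 (0.0313) and an interaction of -0.01 ± 0.36.

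Of the N-glycan, translocon and signal peptide genes, 14 of 26 were measured and 6 rose in each genotype. AT1G18830, listed in the reference under the synonym SEC31A, a coat component of vesicles that leave the ER, was at 3.19 and 3.27 in Wassilewskija, 9.35 and 8.40 with DTT, 3.44 and 3.57 in CSN8, and 9.40 and 8.92 with DTT. Levels without DTT lay at the dim end of the array, above 23.8% of the probe sets in Wassilewskija and 28.6% in CSN8, and those with DTT overlapped between genotypes. The change was 5.64 ± 0.28 in Wassilewskija and 5.66 ± 0.28 in CSN8, with an interaction of 0.01 ± 0.39 and a 95% interval of -0.93 to 0.95. Its relative AT3G63460 (SEC31B) did not pass in either genotype, at 0.55 ± 0.22 and 0.19 ± 0.22. GFAT, which makes the precursor of the amino sugars in glycans, rose 5.45-fold and 5.26-fold. GPT, which starts the assembly of the glycan, rose by 1.51 ± 0.18 and 1.12 ± 0.18.

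Both ER genes with an unadjusted interaction p under 0.05 were on this last list and had the larger change in Wassilewskija. AT3G05230 was at 7.39 and 7.41 in Wassilewskija, 9.66 and 9.12 with DTT, 7.95 and 7.26 in CSN8, and 9.15 and 8.69 with DTT. It rose in both genotypes, 3.97-fold and 2.49-fold, and the interaction of -0.67 ± 0.28 did not pass (unadjusted p = 0.0495, limma adjusted p = 1). AT5G27430 gave 0.57 ± 0.18 in Wassilewskija and -0.05 ± 0.18 in CSN8 and passed in neither (interaction -0.62 ± 0.26, unadjusted p = 0.0471, adjusted p = 1). Members of the 4 lists whose CSN8 changes both lay below both Wassilewskija changes numbered 9 and those with both above numbered 3, where 18.1% of all probe sets did so in each direction.

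The ER body, an ER-derived store of beta-glucosidases, was represented by 3 of 9 loci. PYK10, its major beta-glucosidase, was at 12.12 and 12.02 in Wassilewskija, 10.56 and 10.01 with DTT, 11.54 and 11.76 in CSN8, and 9.69 and 8.81 with DTT. CSN8 arrays were below Wassilewskija arrays in both conditions. PYK10 fell by 1.78 ± 0.27 in Wassilewskija (limma adjusted p = 0.0492) and by 2.40 ± 0.27 in CSN8 (0.0120), with an interaction of -0.62 ± 0.38 (adjusted p = 1). NAI2, a protein needed to form the bodies, fell by 1.91 ± 0.23 and 1.96 ± 0.23, with an interval of the interaction of -0.84 to 0.74. NAI1, a transcription factor upstream of both, did not pass in either genotype (-0.43 ± 0.16 and -0.28 ± 0.16). PYK10 is most abundant in roots, and the root markers given above were lower with DTT in both genotypes and lower in CSN8 than in Wassilewskija of the same batch and condition. Their part in these falls was not tested.

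For the transcriptome as a whole, 186 probe sets (0.818% of all tested) passed the test for DTT in Wassilewskija, 75 upwards and 111 downwards. In CSN8 705 passed (3.10%), 361 upwards and 344 downwards, or 3.79 times as many. The interaction itself passed for 0 probe sets (0%) in limma. At an unadjusted p under 0.05 there were 1087 (4.78%), 667 with a higher (2.93%) and 420 with a lower (1.85%) DTT change in CSN8. The smallest adjusted p was 0.264, shared by 17 probe sets, and all 17 had the higher DTT change in CSN8. Calls in 1 genotype alone were not differences between genotypes that passed the test: of the 561 probe sets called in CSN8 and not in Wassilewskija, none had an interaction with an adjusted p below 0.264.

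The calls in both genotypes overlapped. Of the 186 Wassilewskija calls 144 were also called in CSN8, which is 77.4% of the Wassilewskija list and 20.4% of the CSN8 list. All 144 changed in the same direction, 68 upwards and 76 downwards. Of the 186 calls in Wassilewskija, 179 had the same sign in CSN8, and 659 of the 705 calls in CSN8 had the same sign in Wassilewskija. The order of the counts depended on single arrays. It reversed without the CSN8 array of batch 1, and also without the CSN8 + DTT array of batch 1. Each of these fits leaves a CSN8 group with 1 array, which lowers the precision of the DTT change in CSN8. The order held without the CSN8 array or the CSN8 + DTT array of batch 2, fits that leave as few arrays. The larger count in CSN8 thus depended on its arrays of batch 1.

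**Figure D2:**
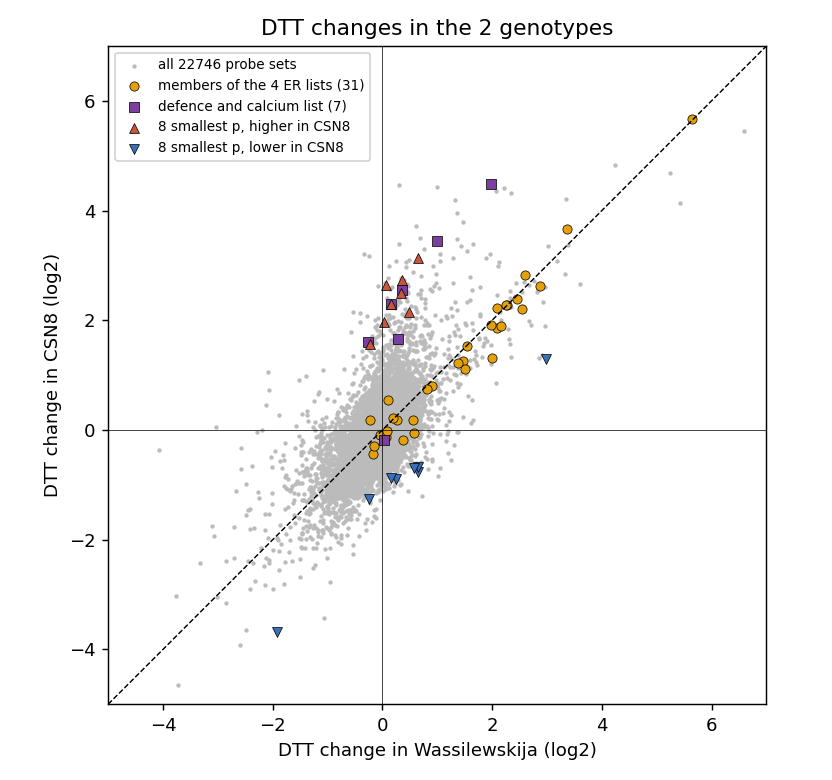
DTT change in Wassilewskija (horizontal, log2) against that in CSN8 (vertical, log2) for 22746 probe sets, with the dashed line at equal changes. The 31 ER genes lie along the line up to 5.64 in Wassilewskija and 5.66 in CSN8, while the 8 single-gene probe sets with the smallest p among those higher in CSN8 stand near 0 on the horizontal axis and between 1.56 and 3.13 on the vertical one.

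The single-gene transcripts with the smallest interaction p had a common form: a small DTT change in Wassilewskija and a rise in CSN8. The 8 named by rule gave interactions of 1.66 to 2.58, all with a limma adjusted p of 0.264, so none passed the test. All 8 rose in CSN8, with adjusted p of 0.00309 to 0.00996, and in Wassilewskija none passed. In 7 of the 8 the untreated level was lower in CSN8 than in Wassilewskija on both arrays, AT3G60420 being the exception, and that contrast uses the same untreated arrays as the interaction.

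TET8, a tetraspanin of the plasma membrane and of extracellular vesicles, was at 10.86 and 10.63 in Wassilewskija, 10.95 and 10.83 with DTT, 9.23 and 9.11 in CSN8, and 11.77 and 11.15 with DTT. Both untreated CSN8 arrays were the lowest of the 8 and both CSN8 + DTT arrays the highest. The change was 1.11-fold in Wassilewskija and 4.88-fold in CSN8, and the interaction was 2.14 ± 0.24 with a 95% interval of 1.55 to 2.73 (2.45 in batch 1 and 1.83 in batch 2). EXO (EXORDIUM), a cell wall protein linked to brassinosteroid-dependent growth, was at 10.25 and 10.36 in Wassilewskija, 9.86 and 10.31 with DTT, 8.80 and 9.39 in CSN8, and 10.45 and 10.88 with DTT. It had the lowest levels in untreated CSN8 and the highest in CSN8 + DTT, and its interaction was 1.79 ± 0.23 (2.04 and 1.54 within the batches).

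The other 6 of the 8 carry no symbol in the reference and are given by locus. AT3G04640 had the largest interaction of the 8, at 2.58 ± 0.34. It was at 7.87 and 7.52 in Wassilewskija, 7.73 and 7.77 with DTT, 5.69 and 5.95 in CSN8, and 8.79 and 8.12 with DTT, so that CSN8 went from below both Wassilewskija groups to above them. AT2G28400, with an interaction of 1.66 ± 0.22, differed from it in its level after DTT. There it was at 9.14 and 8.38 in Wassilewskija, 9.61 and 8.91 with DTT, 6.67 and 6.19 in CSN8, and 9.03 and 8.14 with DTT, and its CSN8 + DTT level stayed below that of Wassilewskija + DTT in each batch. AT3G60420, at 2.47 ± 0.28, was higher in CSN8 than in Wassilewskija in both conditions and both batches. It was at 6.87 and 5.0 in Wassilewskija, 7.60 and 5.58 with DTT, 7.73 and 6.29 in CSN8, and 11.21 and 9.05 with DTT. The remaining loci AT2G32190, AT2G27080 and AT1G05340 gave 2.15 ± 0.24, 1.93 ± 0.24 and 2.39 ± 0.30, and within batch 2, which leaves out the CSN8 array that stood apart, 1.77, 1.57 and 2.24. The interactions within batch 2 were 1.92 for AT3G04640, 1.42 for AT2G28400 and 2.19 for AT3G60420. All 8 were chosen by a fit that includes batch 2, so their values within that batch are not independent of the choice.

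**Figure D3:**
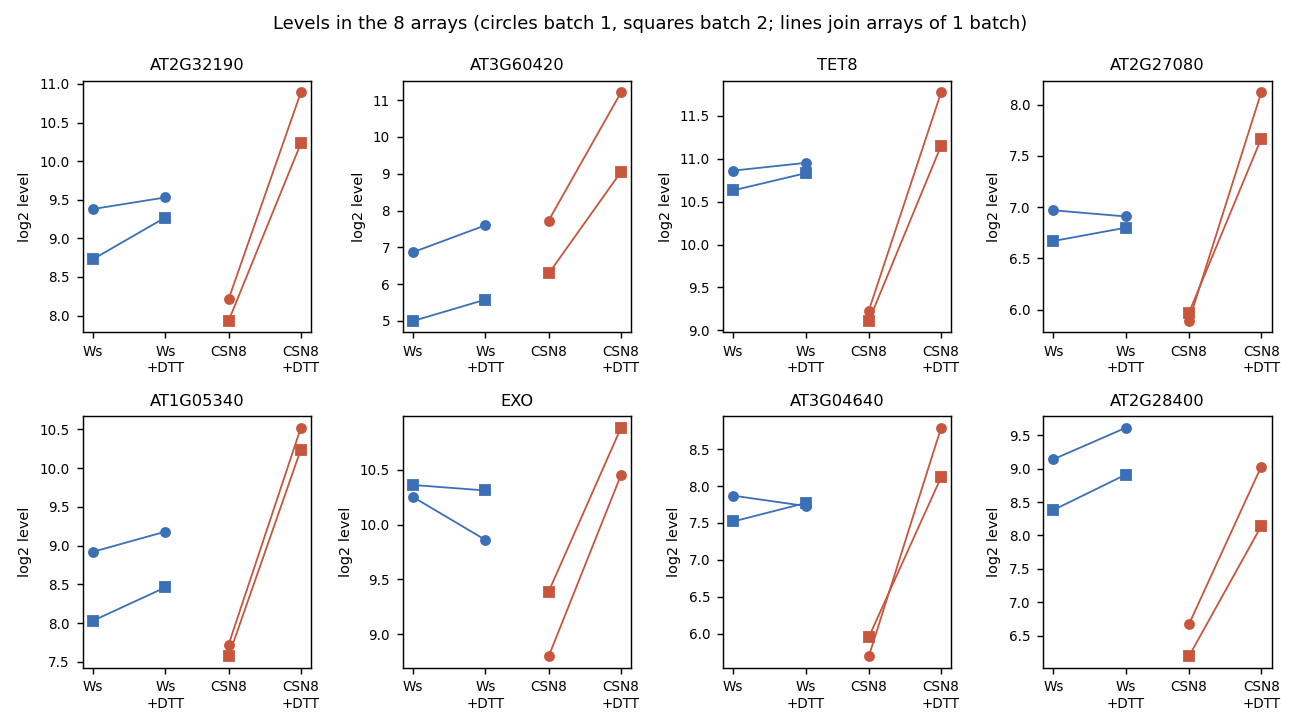
Log2 levels of the 8 single-gene probe sets with the smallest interaction p among those with a higher DTT change in CSN8, in each of the 8 arrays (Ws is Wassilewskija); lines join the arrays of 1 batch without and with DTT, circles mark batch 1 and squares batch 2. The CSN8 lines (red) climb in both batches and are steeper than the Wassilewskija lines (blue), whose fitted changes run from -0.22 to 0.65, from a lower start in 7 of the 8 panels.

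The same form was frequent in the 100 probe sets with the smallest interaction p. Of these, 84 had a higher DTT change in CSN8 and 16 a lower one, and all 100 had the same sign within batch 2 alone. The median interaction of the 84 was 1.84 in batch 1 and 1.40 in batch 2. In CSN8 62 of the 100 rose and 9 fell, and 17 changed in Wassilewskija. Among the 84, untreated CSN8 was below untreated Wassilewskija in 72, a share that is 46.8% over all probe sets. The contrasts share the untreated arrays, and these counts describe the set and test nothing.

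Genes of defence and calcium signalling mostly had a larger DTT change in CSN8. Of 15 loci 7 were measured, and TET8 among them is also 1 of the 8 above. Untreated CSN8 was below Wassilewskija in both batches for TET8, CML37 and CML38. It was above Wassilewskija in both for TET9, SAG101 and CML41. In limma 0 changed in Wassilewskija, where 0.818% of all probe sets did, and 4 rose in CSN8 (TET8, CML37, TET9 and SAG101), where 1.59% did. The median DTT change was 0.29 in Wassilewskija and 2.29 in CSN8. The median interaction was 2.14, against -0.01 over all probe sets, with 2.45 in batch 1 and 1.05 in batch 2. In 6 of the 7 both CSN8 changes lay above both Wassilewskija changes, against 18.1% of all probe sets, and the unadjusted interaction p was under 0.05, against 4.78%. None passed after adjustment (adjusted p from 0.264 for TET8 upwards), and the list was drawn up with earlier results of these arrays known, so its direction is not independent evidence.

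CML37, a calmodulin-like calcium sensor, was at 3.89 and 2.80 in Wassilewskija, 4.77 and 5.85 with DTT, 2.64 and 2.28 in CSN8, and 7.82 and 6.07 with DTT. It was higher with DTT in all 4 pairs and most so in CSN8 of batch 1. The change was 3.91-fold in Wassilewskija (limma adjusted p = 0.315) and 22.4-fold in CSN8 (0.0186), from an untreated level above only 4.77% of the probe sets. The interaction of 2.52 ± 0.84 (adjusted p = 0.935) was 4.3 in batch 1 and 0.74 in batch 2. The 95% interval was 0.49 to 4.55.

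TET9, a second tetraspanin, was at 3.10 and 3.29 in Wassilewskija, 3.86 and 4.50 with DTT, 3.46 and 3.93 in CSN8, and 7.96 and 6.33 with DTT. The CSN8 + DTT arrays were the highest of the 8. Its interaction was 2.46 ± 0.74 (adjusted p = 0.845), with 3.73 and 1.18 within the batches. SAG101, a partner of EDS1 in immune signalling, was at 4.21 and 3.81 in Wassilewskija, 4.44 and 4.16 with DTT, 4.73 and 4.37 in CSN8, and 6.80 and 5.62 with DTT. The CSN8 + DTT arrays were again the highest, and the interaction was 1.37 ± 0.34 (adjusted p = 0.688), with 1.84 in batch 1 and 0.90 in batch 2.

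The calmodulin-like genes CML38 and CML41 did not pass in either genotype, with DTT changes of 0.35 ± 0.65 and -0.26 ± 0.35 in Wassilewskija and of 2.55 ± 0.65 and 1.60 ± 0.35 in CSN8. The interaction was 2.37 and 2.03 within the batches for CML38, and 2.66 and 1.05 for CML41. CSA1, an immune receptor gene, was the 1 member without the pattern, at 0.02 ± 0.19 and -0.19 ± 0.19.

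Expansins loosen cell walls. Of 21 loci 13 were measured, with a median interaction of 0.24: 2 fell in each genotype (EXPA4 and EXPA18), where 0.488% of all probe sets fell in Wassilewskija and 1.51% in CSN8, and EXLA1 alone rose, in CSN8. EXPA4 was at 7.20 and 7.55 in Wassilewskija, 5.16 and 5.44 with DTT, 7.29 and 7.74 in CSN8, and 4.98 and 5.30 with DTT, with overlapping levels in both genotypes. It fell 4.22-fold and 5.19-fold (limma adjusted p = 0.00391 and 0.00195), with an interaction of -0.30 ± 0.19. EXPA18, the root hair expansin, fell by 1.69 ± 0.14 and 1.09 ± 0.14.

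The expansin-like gene EXLA1 was at 9.0 and 8.68 in Wassilewskija, 8.58 and 8.32 with DTT, 7.68 and 7.28 in CSN8, and 8.70 and 8.65 with DTT. It was lower with DTT in both Wassilewskija pairs and higher in both CSN8 pairs. The change was -0.39 ± 0.15 in Wassilewskija (adjusted p = 0.449) and 1.19 ± 0.15 in CSN8 (0.0156), and the interaction was 1.58 ± 0.21 (adjusted p = 0.264, interval 1.08 to 2.09), with 1.44 in batch 1 and 1.73 in batch 2. EXLA2 gave -0.41 ± 0.26 and 0.82 ± 0.26 and passed in neither (interaction 1.24 ± 0.36, adjusted p = 0.829). EXLA3 gave -0.02 ± 0.17 and 0.22 ± 0.17 (interaction 0.24 ± 0.24, adjusted p = 1).

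Heat shock and cytosolic chaperone genes had interactions above 0 in 13 of 13 measured members, of 31 on the list, where 49.2% of all probe sets lay above 0. The values ran from 0.16 to 1.85 with a median of 0.58 (0.89 in batch 1 and 0.29 in batch 2). In 9 of the 13 both CSN8 changes lay above both Wassilewskija changes, against 18.1% of all probe sets. None of the 13 passed for DTT in either genotype or for the interaction, and 2 had an unadjusted interaction p under 0.05, against 4.78% of all probe sets. AT5G37670 fell in the average of both genotypes, by 0.72 (limma adjusted p = 0.0206). The median DTT change was -0.50 in Wassilewskija and 0.18 in CSN8. This list too was drawn up with earlier results of these arrays known. Its members were read on the same arrays, so the 13 are not independent cases.

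AT1G53540 showed the widest difference of this list. It was at 8.11 and 6.26 in Wassilewskija, 6.13 and 5.92 with DTT, 5.88 and 4.42 in CSN8, and 6.66 and 5.01 with DTT. The Wassilewskija array of batch 1 without DTT was the highest of the 8, and the CSN8 arrays without DTT were the lowest of their batches. Its interaction was 1.85 ± 0.54 (limma adjusted p = 0.820), 2.77 in batch 1 and 0.93 in batch 2. Hop3, a co-chaperone of HSP70 and HSP90, gave 2.11 in batch 1 and -0.01 in batch 2, and Fes1A, a nucleotide exchange factor of HSP70, 1.51 and -0.06. For both, the difference was present in 1 batch alone.

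**Figure D4:**
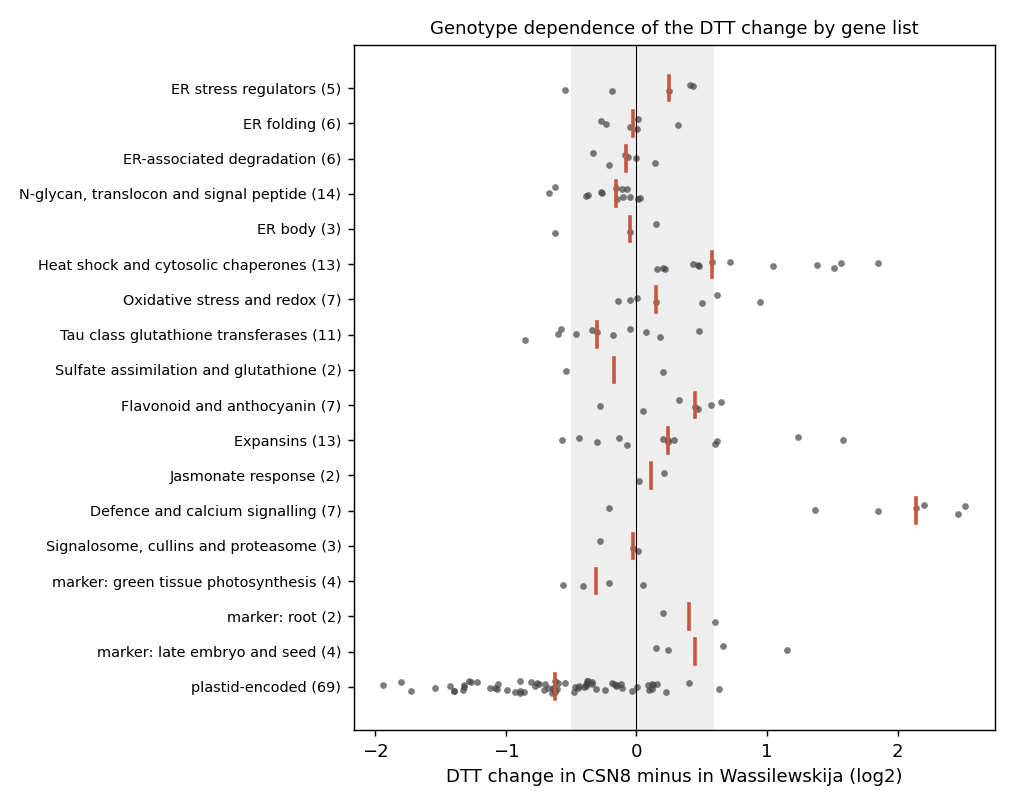
Interaction (DTT change in CSN8 minus that in Wassilewskija, log2, horizontal axis) of each measured member of the gene lists, with the number of members in brackets, the list median as a red bar, and a grey band from the 5th to the 95th percentile of all probe sets (-0.49 to 0.59). The ER lists sit inside or near the band, 6 of the 7 members of the defence and calcium list lie to its right, and 59 of the 69 plastid-encoded transcripts lie to the left of 0.

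Lower DTT changes in CSN8 were fewer and smaller among the smallest p-values. AT5G52670 had the smallest p of this direction among single-gene probe sets. It was at 2.75 in both Wassilewskija arrays, 5.44 and 6.03 with DTT, 2.74 and 2.90 in CSN8, and 4.06 and 4.15 with DTT. It rose in both genotypes, from levels above only 12.1% and 13.7% of the probe sets, to 7.94-fold in Wassilewskija and 2.44-fold in CSN8, with an interaction of -1.70 ± 0.26 (limma adjusted p = 0.343). AT3G16370 fell in both genotypes, 3.80-fold and 12.9-fold, with an interaction of -1.76 ± 0.30 (adjusted p = 0.443). Its levels were 10.86 and 11.29 in Wassilewskija, 8.64 and 9.66 with DTT, 10.78 and 11.38 in CSN8, and 7.29 and 7.49 with DTT, so the genotypes overlapped without DTT and separated with it.

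PRL (MCM7), a subunit of the replicative helicase that marks dividing cells, was at 6.13 and 6.09 in Wassilewskija, 6.28 and 6.42 with DTT, 5.61 and 5.66 in CSN8, and 4.76 and 4.72 with DTT. The 4 groups did not overlap. It fell 1.86-fold in CSN8 (limma adjusted p = 0.0254), did not pass in Wassilewskija (0.24 ± 0.14), and had an interaction of -1.13 ± 0.19 (adjusted p = 0.443). BGLU44, a beta-glucosidase that fell in CSN8 by 2.77 ± 0.28 and gave -0.96 ± 0.28 in Wassilewskija, had an interaction of -1.81 ± 0.39 (adjusted p = 0.579). SCPL49, a serine carboxypeptidase, fell 4.01-fold in Wassilewskija and 7.43-fold in CSN8 (interaction -0.89 ± 0.22, adjusted p = 0.689). Within batch 2 the interactions were -2.03 for AT5G52670, -2.25 for AT3G16370, -1.27 for PRL, -2.54 for BGLU44 and -0.97 for SCPL49, each farther from 0 than within batch 1. AT5G52670, AT3G16370 and PRL were chosen by an interaction fit that includes both batches.

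Lists for redox, detoxification, pigments and hormones held few changes. Of the oxidative stress and redox genes 7 of 26 were measured, and STZ, a zinc finger repressor induced by several stresses, was the 1 that rose in CSN8 (1.72 ± 0.29, limma adjusted p = 0.0346). In Wassilewskija STZ gave 1.22 ± 0.29 (adjusted p = 0.191), and its interaction of 0.50 ± 0.41 did not pass. For the glutathione transferases of the tau class (11 of 28 measured), sulfate assimilation (2 of 14), flavonoids and anthocyanins (7 of 17), jasmonate response (2 of 10) and the signalosome, cullins and proteasome (3 of 22), none changed in either genotype. Median interactions were 0.15 for the redox list, -0.30 for the glutathione transferases and 0.45 for the flavonoid list. In the signalosome list, CSN5B, a copy of the catalytic subunit, gave an interaction of -0.28 ± 0.27, the cullin gene CUL4 one of 0.02 ± 0.24, and RPN12a, a proteasome subunit, one of -0.03 ± 0.19.

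Other genes with large average DTT changes showed how wide the intervals were. CCR2, a cinnamoyl CoA reductase of phenylpropanoid metabolism, was at 4.13 and 4.56 in Wassilewskija, 6.82 and 7.70 with DTT, 6.15 and 4.72 in CSN8, and 7.31 and 6.30 with DTT. It was higher with DTT in all 4 pairs, and the levels with DTT overlapped between genotypes. Its interaction was -1.55 ± 0.78, with a 95% interval of -3.41 to 0.31. OSM34, an osmotin-like protein, was lower with DTT in all pairs, by 3.10 ± 0.53 in Wassilewskija and 1.74 ± 0.53 in CSN8 without passing in either alone (interval of the interaction -0.44 to 3.16). ChiC, a chitinase, gave an interaction of -0.06 in batch 1 and 2.08 in batch 2. MSRB5, a methionine sulfoxide reductase, fell 3.08-fold in Wassilewskija and 2.52-fold in CSN8 (interval of the interaction -0.45 to 1.03).

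The size of the DTT response was compared on probe sets chosen by the average of both DTT changes. In this balanced design, that choice favours neither genotype if both vary equally. The standard deviation of the fitted DTT change over probe sets was 0.48 in CSN8 and 0.37 in Wassilewskija. Such a choice can take in more probe sets with large CSN8 changes, and its neutrality was not tested. Over the 416 that rose on average, the median change was 0.71 in Wassilewskija (1.64-fold) and 1.37 in CSN8 (2.58-fold). The median interaction was 0.49, with 0.69 in batch 1 and 0.30 in batch 2. The rise was larger in CSN8 for 294 of the 416 (70.7%), where the estimate was larger in CSN8 for 49.2% of all probe sets. In 232 (55.8%) both CSN8 changes lay above both Wassilewskija changes, against 18.1% of all. Unadjusted interaction p-values under 0.05 numbered 175 (42.1%), against 4.78% of all, and 0 passed after adjustment. The test that chose the 416 uses the same residual variance as the interaction test, so a low variance lowers both p-values, and the share of small p-values is a description.

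The 652 falls had a median of -0.84 in Wassilewskija (1.79-fold lower) and of -1.03 in CSN8 (2.04-fold lower), and a median interaction of -0.21 (-0.23 and -0.17 within the batches). In 286 (43.9%) both CSN8 changes lay below both Wassilewskija changes, against 18.1% of all, and 151 (23.2%) had an unadjusted interaction p under 0.05, against 4.78%, with the same limit as for the rises. Rises and falls were not tested against each other, and without the CSN8 + DTT array of batch 1 the difference in size was 0.23 for rises and 0.29 for falls. The ER genes did not share the larger rise: their 19 rises had a median interaction of -0.08, against 0.49 over all 416 rises, a contrast given as a description with no test.

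**Figure D5:**
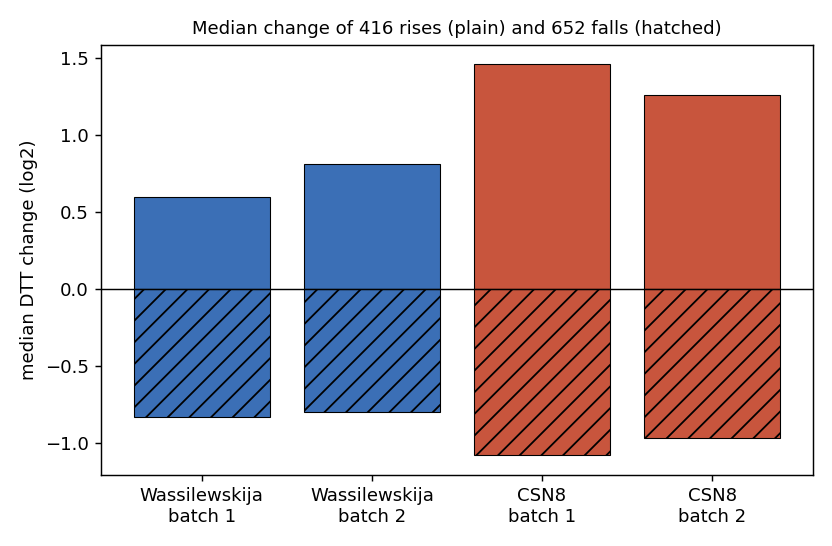
Median DTT change (log2, vertical axis) of the 416 probe sets that rose and the 652 that fell on average over both genotypes, for each pair of arrays, with Wassilewskija in blue and CSN8 in red. Rises reach 1.46 and 1.26 in CSN8 against 0.60 and 0.81 in Wassilewskija, and falls reach -1.08 and -0.97 against -0.83 and -0.80.

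Probe sets were also chosen in 1 batch and read in the other. The choice again used the average of both DTT changes, so it can take in more probe sets with large CSN8 changes. In the batch of choice, the rises had medians of 1.05 in Wassilewskija and 2.74 in CSN8 for batch 1, and of 1.67 and 1.97 for batch 2. These values describe the sets and test nothing. The 200 largest mean rises of batch 1 had median changes of 1.37 in Wassilewskija and 1.86 in CSN8 in batch 2, and 137 (68.5%) were larger in CSN8. For the 200 largest mean rises of batch 2, the medians in batch 1 were 0.92 and 2.37, and 149 (74.5%) were larger in CSN8. The corresponding falls had medians of -1.13 and -1.48 in batch 2, and of -1.43 and -1.53 in batch 1. Among these falls, the CSN8 change lay above that of Wassilewskija in 85 (42.5%) and in 83 (41.5%). Over all probe sets the median interaction was -0.02 in batch 1 and 0.02 in batch 2. In every one of these readings the CSN8 median was the larger, by less in batch 2 for rises.

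Batch 1 of CSN8 also had the widest changes over all probe sets. The standard deviation of the DTT change over probe sets was 0.60 there, 0.45 in CSN8 of batch 2, and 0.41 and 0.44 in Wassilewskija. Rises of at least 1 numbered 904 and 471 in CSN8, batch 1 first, and 167 and 328 in Wassilewskija. The size of the difference depended on single arrays. The median interaction of the rises was 0.08 without the Wassilewskija + DTT array of batch 2 and 0.17 without the Wassilewskija array of batch 1. It was 0.28 without the CSN8 array of batch 1, 0.23 without the CSN8 + DTT array of batch 1 and 0.27 without the Wassilewskija + DTT array of batch 1. Without the CSN8 + DTT array of batch 2 it was 1.47, and 0.86 without the CSN8 array of batch 2.

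The order of the changes was partly shared between the genotypes. Across 22746 probe sets, which are not independent replicates, the fitted changes correlated with r = 0.631 and rho = 0.465. Among the 1068 that changed on average, r was 0.850 and rho 0.801. The 1068 were chosen by the average of the same 2 changes. That choice by itself raises the correlation, so the higher values describe the set and test nothing. The genotypes have no array in common, but their arrays share batches. Single-batch changes gave r = 0.421 between genotypes in batch 1, 0.554 in batch 2, and 0.514 and 0.536 across batches, against 0.529 between the batches of Wassilewskija and 0.659 between those of CSN8. The r between genotypes thus lay on both sides of the value between the Wassilewskija batches. Of the 200 largest rises, single-batch changes of the 2 genotypes held 58 in common in batch 1, 99 in batch 2, and 74 and 78 across batches. The 2 batches of Wassilewskija held 102 in common and those of CSN8 held 120. The fitted changes, which average both batches, held 89. Of the 200 largest falls, the genotypes held 65 in common in batch 1, 91 in batch 2, and 86 and 62 across batches. The batches of Wassilewskija held 99 of the falls in common, those of CSN8 held 106, and the fitted changes 87. For rises and for falls, each single-batch count between genotypes was below both counts within genotypes, which is a description with no test. The interaction itself was less reproducible, with r = 0.154 and rho = 0.048 between batches 1 and 2.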

How the data were processed

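Arabidopsis ATH1 arrays (14, of which 8 are used here) were read from the deposited table, whose columns were matched to samples by their identifiers. Per the submitters' processing notes, RMA made the deposited log2 summaries, which involves background correction, quantile normalization and summarising of probes. The sources used here do not name the software that ran it. Of 22810 probe sets, 64 controls were left out. The platform annotation gave 1 gene for 13513, several for 503 and none for 8730; 13484 of the 13513 were found in the reference gene table, which supplied symbols.

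From these values limma 3.58.1 in R 4.3.3 (lmFit, contrasts.fit, eBayes) fitted 4 group means and batch on the 8 arrays, two-sided, with Benjamini-Hochberg adjustment over 22746 probe sets and a threshold of 0.05. No filter on level was used. Residual degrees of freedom were 3. Intervals are 95%. The fit was also run on simulated data, with independent noise of the same spread in every array. That setting leaves out the correlated deviations given next, so it does not show how the fit behaves with them. The batch is from the labels. Deviations from group means of arrays of 1 batch correlated with r of 0.572 within Wassilewskija and 0.57 within CSN8. Between genotypes r ran from 0.0747 to 0.383. The batch term is common to both genotypes, so it does not remove a batch difference particular to 1 of them.

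Members and the 17 gene lists (317 loci, 107 with a single-gene probe set) were chosen with earlier results of these data known; list membership of loci without a symbol is background knowledge. Named genes were the 8 smallest interaction p-values in each direction (none having passed), the 12 largest average rises and 10 largest falls with a symbol, all measured ER list members, and up to 2 members with the largest interaction of each other list, taking for each locus its probe set of highest mean. Further list members appear with their list. Alternatives were no batch term, batch as a random block, renewed quantile normalization, median centring, a mean level of at least 6, an intensity trend, array weights, and each array left out in turn. The 6 other arrays, of Columbia and csn5a-1, carry no DTT group and were not used here.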

Additional observations from a re-analysis of the deposited data

Results flagged for a closer look

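For 14 of the 84 named genes both DTT changes of Wassilewskija had the opposite sign to both of CSN8. This was so for 2070 of all 22746 probe sets (9.1%). All 14 were named for the p-value or the size of their interaction, a choice that favours opposite signs. Their number is therefore not comparable with that share. The interaction was tested for each of the 14 and did not pass. In CSN8 the change was upwards and in Wassilewskija downwards for AT1G53540 (interaction 1.85), EXO (1.79), EXLA1 (1.58), AT2G29500 (1.57), EXLA2 (1.24), AT2G21640 (0.62) and UF3GT (0.57), an enzyme of anthocyanin synthesis. The reverse held for the plastid genes rps15 (-1.40), rpoA (-1.33) and rps2 (-1.28), for PRL (-1.13) and AT3G05390 (-1.03), and for the glutathione transferase genes GSTU18 (-0.85) and GSTU22 (-0.60).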

How the results depend on the processing

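The interaction passed for 0 probe sets under all 7 settings that keep the 8 arrays, and for 0 to 4 when 1 array was left out. The 4 calls came without the CSN8 + DTT array of batch 2 (limma adjusted p = 0.0499) and were AT5G64870, AT1G55790 and 2 probe sets without a single gene, named after their values were seen. With no batch block, pairing of arrays by batch was ignored: the calls were then 83 in Wassilewskija, 293 in CSN8 and 533 for the average of both, with the interaction at 0, 662 at an unadjusted p under 0.05 and a smallest adjusted p of 0.883. The smallest limma adjusted p of the interaction was 0.123 with a mean level of at least 6, 0.143 with an intensity trend and 0.208 with median centring. It was 0.25 with array weights, 0.268 with renewed quantile normalization and 0.467 with batch as a random block. With a mean level of at least 6, falls were larger in CSN8 by a median of 0.27 in place of 0.21. The other settings that keep all arrays changed no count by over 1.5 times. Leaving out 1 array gave 4 to 188 calls in Wassilewskija, with 4 and 7 without its DTT array of batch 1 or 2. It gave 22 to 717 in CSN8 and 299 to 1240 for the average. The median difference in size ran from 0.082 to 1.47 for rises and from 0.067 to 0.50 for falls, and the correlation of the changes from 0.49 to 0.64. A group left with 1 array is assumed to vary like the others, and without an array the average is not independent of the interaction even if the genotypes vary equally. Of the 84 named genes, 28 had an unadjusted interaction p under 0.05, and in their 412 values under the 15 settings 0 reversed and 0 passed. The 28 were set apart by p-values from these same arrays, so the lack of reversals is no independent check. For the other 56 genes, 125 of 829 values moved by at least 1 SD. Dim levels limit folds of genes such as AT1G18830, CML37 and AT5G52670.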

Other observations

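Transcripts of the plastid genome, a group chosen after its values were seen, had lower DTT changes in CSN8 than in Wassilewskija. Of 69 measured, 59 had an interaction below 0, with a median of -0.62 and a range of -1.94 to 0.63, against 50.8% of all probe sets below 0 and a median of -0.01. In 30 of the 69 both CSN8 changes lay below both Wassilewskija changes, where 18.1% of all probe sets did so, and 15 had an unadjusted interaction p under 0.05, where 4.78% of all did. None passed for the interaction or for DTT in either genotype in limma. The median DTT change was 0.14 in Wassilewskija and -0.47 in CSN8.

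The gene rpoA, which encodes a subunit of the plastid RNA polymerase, was at 11.25 and 9.85 in Wassilewskija, 11.67 and 10.72 with DTT, 11.90 and 10.72 in CSN8, and 11.07 and 10.20 with DTT. In each batch it was higher with DTT in Wassilewskija and lower with DTT in CSN8 (interaction -1.33 ± 0.24, limma adjusted p = 0.502). The ribosomal protein gene rps15 was at 6.15 and 4.37 in Wassilewskija, 6.84 and 4.96 with DTT, 8.22 and 6.16 in CSN8, and 7.21 and 5.66 with DTT, with untreated CSN8 the highest group of each batch. The median interaction of the 69 was -0.86 in batch 1 and -0.22 in batch 2. Batch 1 holds the CSN8 array with the larger GAPDH 3′ minus 5′ difference (1.67). The part of that array in the difference between batches was not tested.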
